A study of Mus musculus with 6 samples.

Results

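The 10 genes described here are those through which macrophages sense excess cholesterol and pass it on to lipoproteins, chosen by name as Abca1, Abcg1, Nr1h2, Nr1h3, Apoe, Mylip, Srebf1, Scd1, Lpcat3 and Ch25h. All 10 were found, once each, among the 27240 genes of the deposited table. They were measured by sequencing of poly(A) RNA in 6 libraries of mouse primary peritoneal macrophages, the phagocytes of the abdominal cavity. All 6 libraries were treated with oxLDL, oxidised low-density lipoprotein, which loads macrophages with sterol. By genotype, 3 libraries were WT and 3 were KO, called wild type and knockout below. The series title names the kinases DCLK1 and IKKβ, while the labels do not name the deleted gene, the allele, any Cre driver, or the strain, age or sex of the animals. Whether replicates came from separate or pooled animals is not stated either. The p-values therefore reflect only how far these libraries differ from each other, and that spread may be technical. No library without oxLDL was analysed here, so the values compare genotypes in oxLDL-treated cells and do not measure the response to oxLDL.

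Cells cannot break the sterol ring, so a macrophage that has taken up lipoprotein cholesterol must store it as ester or export it. The liver X receptors LXRα and LXRβ, encoded by Nr1h3 and Nr1h2, are nuclear receptors that bind oxysterols and the cholesterol precursor desmosterol. Paired with a retinoid X receptor, they raise transcription of the cholesterol exporters Abca1 and Abcg1, the lipoprotein component Apoe and the ubiquitin ligase gene Mylip, whose product limits lipoprotein uptake. They also raise the lipogenic regulator Srebf1 and the membrane lipid enzymes Scd1 and Lpcat3. Ch25h encodes an enzyme that makes an oxysterol.

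Promoters are shown first because 2 of these genes, Abca1 and Srebf1, carry nearly the same LXR element beside a start site. RefSeq promoters (GRCm38.p6, 250 bases before to 50 after a start) were given for 8 of the 10 genes, 13 promoters in all, with no entry for Abcg1 and Scd1. A 15-base element of the Abca1 promoter, with its 2 middle bases left free, was searched on both strands. It was chosen after the promoters had been read and so was picked to match these genes. It occurred in 3 of 32851 mouse promoters (0.00913%), those of Abca1, Srebf1 and Fasn, a lipogenic gene outside the 10. The match began 67 bases before the start in Abca1, 182 before an internal start in Srebf1 and 225 before the start in Fasn, each time on the opposite strand. Read on that strand, with the fixed letters in capitals, the 3 matches were as follows.
Abca1 element: GGTTACTacCGGTCA
Fasn element: GGTTACTacCGGTCA
Srebf1 element: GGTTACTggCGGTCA

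The whole windows of the 2 member promoters follow, on the minus strand as transcribed, with the match in capitals (there in its reverse complement) and, in Abca1, also an E box.
Abca1 promoter (chr4:53159846-53160145): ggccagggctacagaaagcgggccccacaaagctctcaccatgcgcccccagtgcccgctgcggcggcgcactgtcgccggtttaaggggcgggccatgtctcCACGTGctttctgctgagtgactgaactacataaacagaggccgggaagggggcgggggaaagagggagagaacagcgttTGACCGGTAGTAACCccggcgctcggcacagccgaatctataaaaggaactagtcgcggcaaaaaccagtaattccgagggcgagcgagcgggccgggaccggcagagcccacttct
Srebf1 promoter (chr11:60210422-60210721): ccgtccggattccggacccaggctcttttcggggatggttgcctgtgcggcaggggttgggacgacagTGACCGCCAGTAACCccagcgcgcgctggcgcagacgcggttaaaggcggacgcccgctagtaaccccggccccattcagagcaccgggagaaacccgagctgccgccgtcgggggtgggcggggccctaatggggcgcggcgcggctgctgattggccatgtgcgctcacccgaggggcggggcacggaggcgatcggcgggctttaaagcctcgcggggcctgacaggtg
The E box CACGTG occurred in 1 of the 13 member promoters and in 7.15% of all promoters. Exact direct repeats of AGGTCA or AGTTCA with NNNN between them, the textbook form of an LXR element, were in 0 of 13 and in 0.0274% of all. The sterol element TCACNCCAC (1.24% of all promoters) and the NF-κB motif (GGG and TTTCC with NN between, 1.63% of all) were also in 0 of 13. Each motif was searched on both strands, and the match and the E box of Abca1 do not overlap. A match describes letters in this window and is not evidence of binding.

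Over the whole series, total counts lay between 68053008 and 79090732 per library. Levels are given as CPM, counts relative to the TMM-scaled library size, where 1 count equalled 0.0127 to 0.0147 CPM. Wild-type replicate 1 stood apart on the first principal component, at -60.7. Wild-type replicates 2 and 3 lay at -16.2 and -5.94, and knockout replicates 1 to 3 at 10.9, 34.6 and 37.3. The groups thus did not overlap on this component, which held 25.9% of the variance. Dclk1, the kinase gene of the title, was at 7.13 ± 0.383 CPM in wild-type libraries and 5.53 ± 0.370 CPM in knockout ones (mean ± SD of 3, as for all such values). All 3 knockout values of Dclk1 lay below all 3 wild-type values, which held for 8.89% of all genes tested. The fold of 0.776 (95% interval 0.642 to 0.937) missed the threshold (edgeR adjusted p = 0.332). The labelled cell type was checked against its markers, of which all 7 were detected and 6 summed to between 4402 and 4592 CPM in wild-type and between 4544.5 and 4646 CPM in knockout libraries. Within that sum single markers differed in direction, with Itgam higher (fold 1.57, edgeR adjusted p = 0.344) and Csf1r lower (0.945, 0.394) in knockout, both without overlap of the groups. The remaining macrophage marker, the lysozyme gene Lyz2, was called lower in knockout, at 48.7% of its wild-type level (edgeR adjusted p = 6.5e-06).

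None of the 10 genes differed between knockout and wild type by edgeR's quasi-likelihood test at an adjusted p under 0.05, against 0.0677% of all 16239 genes tested. Fitted levels in knockout were between 0.944 and 1.06 times wild type for 7 genes, 1.08 times for Abcg1 and, in the 2 genes of lowest level, 0.571 times for Scd1 and 0.503 times for Ch25h. At an unadjusted p under 0.05 were 2 of the 10, beside 10.4% of all genes: Abcg1, higher in knockout (4.73% of all), and Scd1, lower (5.71% of all). DESeq2 called Scd1 alone among the 9 to which it gave an adjusted p, where it called 3.77% of all genes. Limma on FPKM called 0 in each of 3 settings, but those with an FPKM filter tested 8 of the 10, without Scd1 and Ch25h. Knockout and wild-type values did not overlap for these same 2 genes, or 2 of 10, beside 17.6% of all genes (8.68% higher and 8.89% lower in knockout). The median log2 fold change of the 10 was -0.06, and that of all genes tested was 0.00 (-0.0019).

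**Figure D1:**
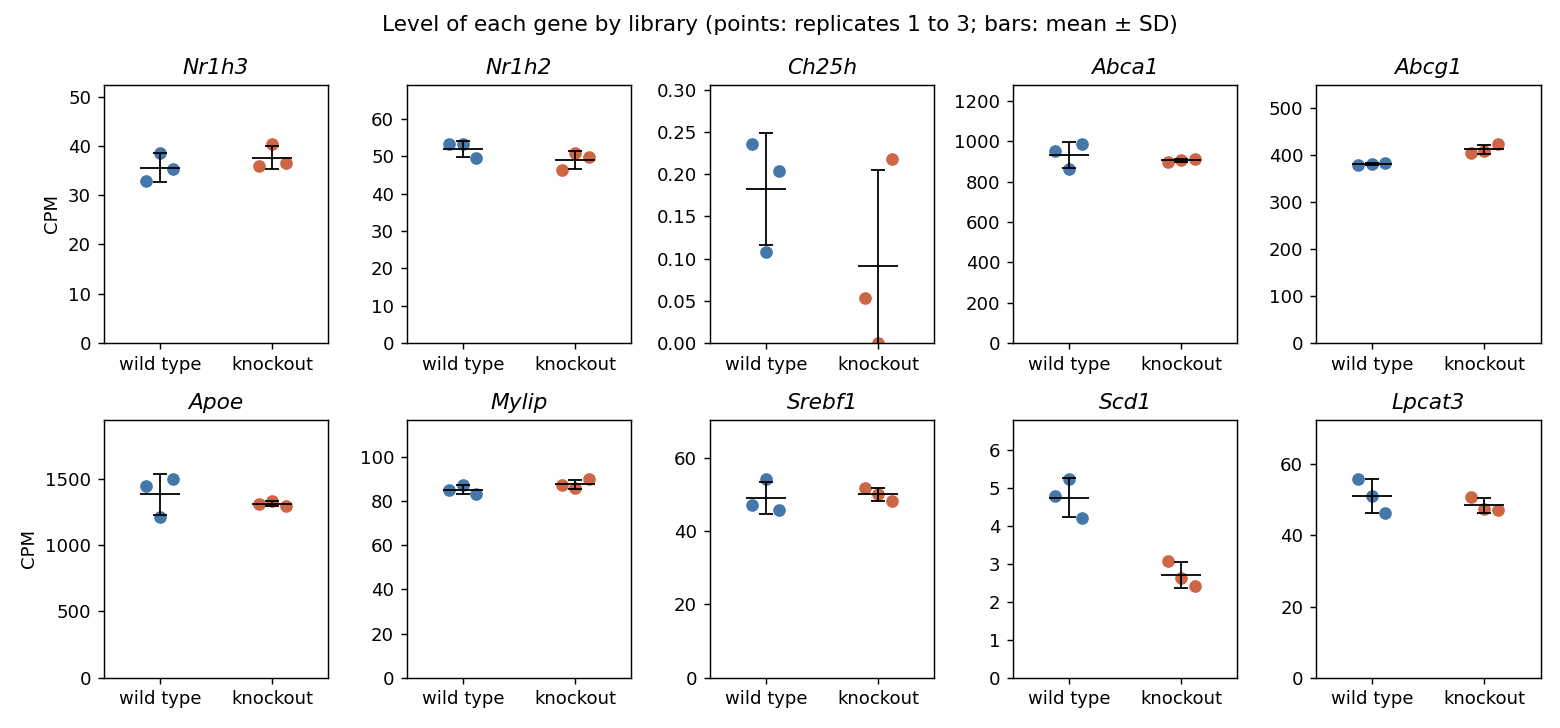
CPM of each of the 10 genes (y axes start at 0 and differ between panels) in wild-type and knockout libraries, with 1 point per library and bars for the mean ± SD of 3. Scd1 and Abcg1 are the panels in which no knockout point lies within the wild-type range.

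The level of these genes spanned from Apoe to Ch25h in both genotypes. In the deposited FPKM, which is per length and so can be compared between genes, the wild-type means were 579 for Apoe, 80.5 for Abca1, 46.7 for Abcg1 and 23.6 for Mylip. Lpcat3 at 14.0, Nr1h2 at 13.8 and Nr1h3 at 12.6 FPKM followed. The ranges of these neighbours overlapped, so their order is not resolved. Srebf1 was at 7.78, Scd1 at 0.865 and Ch25h at 0.111 FPKM. The knockout order was the same except among Nr1h3, Lpcat3 and Nr1h2, at 13.5, 13.4 and 13.2 FPKM, whose ranges overlapped again as neighbours.

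**Figure D2:**
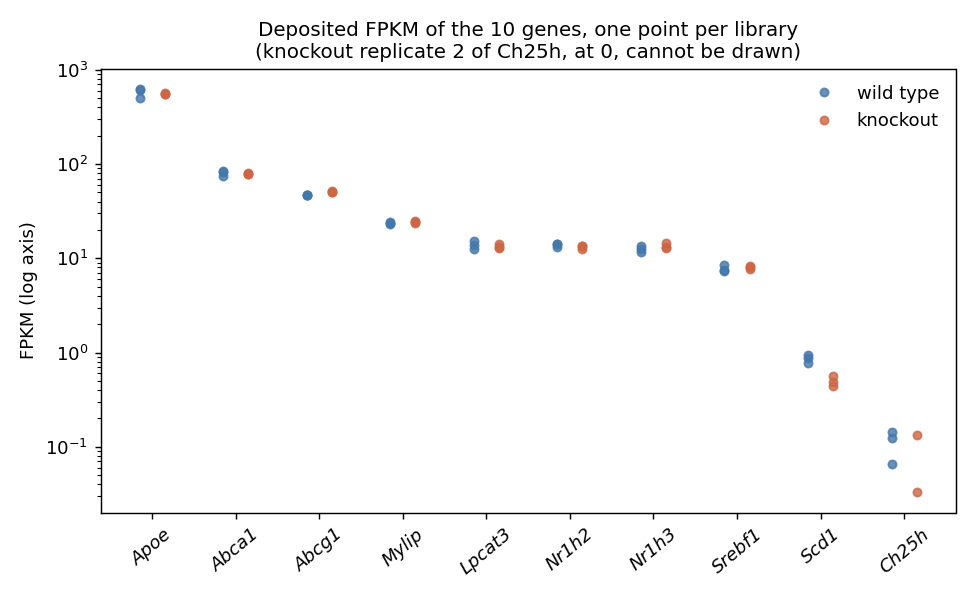
Deposited FPKM (log axis) of the 10 genes in wild-type and knockout libraries, 1 point per library, ordered by the mean of all 6. Apoe is highest at 504 to 628 FPKM and Ch25h lowest, with the knockout library at 0 not drawn.

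Positions below are on GRCm38 as deposited, and all 10 genes are annotated as protein-coding in GENCODE M21, where Nr1h2 and Scd1 have other ends. Among the receptors, Nr1h3 (LXRα; ENSMUSG00000002108, chromosome 2, 91184061 to 91202834) was at 32.8, 38.6 and 35.3 CPM in wild-type replicates 1 to 3 and at 35.9, 40.3 and 36.6 CPM in knockout replicates 1 to 3. The groups overlapped, and the fitted fold was 1.06 (95% interval 0.928 to 1.20, edgeR adjusted p = 0.795). Nr1h2 (LXRβ; ENSMUSG00000060601, chromosome 7, 44549616 to 44553949) was at 53.2, 53.2 and 49.5 CPM in wild-type libraries and at 46.4, 50.9 and 49.9 CPM in knockout libraries. Its groups overlapped as well, with a fold of 0.944 (95% interval 0.856 to 1.04, edgeR adjusted p = 0.698).

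The balance between both receptors was also taken within each library. Here the ratio of Nr1h3 to Nr1h2 FPKM was 0.822, 0.969 and 0.952 for the wild-type libraries, against 1.03, 1.06 and 0.978 for the knockout ones. Each knockout ratio lay above each wild-type ratio, with wild-type replicate 2 and knockout replicate 3 nearest to each other. The means were 0.914 ± 0.0806 and 1.02 ± 0.0401 (SD, n = 3 each), and an exact two-sided permutation test gave p = 0.1, the smallest p that 3 against 3 allows. The difference of 0.109 was 0.0626 without wild-type replicate 1, whose ratio was the lowest.

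Ch25h (ENSMUSG00000050370, chromosome 19, 34473778 to 34475164), the oxysterol-making enzyme gene, was barely detected. It had 16, 8 and 16 raw counts in the wild-type libraries, against 4, 0 and 16 in the knockout ones. The groups overlapped, since knockout replicate 3 matched the highest wild-type count. The interval of its fold ran from 0.0785 to 3.22 (edgeR adjusted p = 0.826), so a difference was not detectable at this depth. A count of 0 allows up to 3 counts, or 0.0410 CPM in that library, for counting error only. All 6 values are multiples of 4, a spacing that is common among low values of the table. Its exon overlaps an antisense transcript, Gm26902, by 159 bases. Without a statement that counting used strand, reads of the pair cannot be told apart.

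Abca1, the exporter that loads cholesterol onto lipid-poor apolipoprotein, was abundant in both genotypes. Abca1 (ENSMUSG00000015243, chromosome 4, 53030787 to 53159895) was at 952, 862 and 984 CPM in wild-type libraries and at 898, 907 and 911 CPM in knockout libraries. The 3 knockout values lay inside the wild-type range, whose lowest value was that of replicate 2. The fold was 0.971 (95% interval 0.898 to 1.05, edgeR adjusted p = 0.820).

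Abcg1, which exports cholesterol to mature high-density lipoprotein, was slightly higher in each knockout library. Abcg1 (ENSMUSG00000024030, chromosome 17, 31057675 to 31117988) was at 379, 381 and 384 CPM in wild-type libraries and at 405, 409 and 423 CPM in knockout libraries. All 3 knockout values lay above all 3 wild-type values, and the spread within each group was small (SD 2.78 and 9.44 CPM). The fold was 1.08 (log2 fold change 0.11, SE 0.0325, 95% interval of the fold 1.03 to 1.14), a difference that missed the threshold once corrected over the table (edgeR adjusted p = 0.266, unadjusted 0.00899). DESeq2 gave an adjusted p = 0.140, and over all alternatives it ranged from 0.140 to 0.555.

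Apoe, the secreted apolipoprotein that accepts exported cholesterol, was the most abundant of the 10. Apoe (ENSMUSG00000002985, chromosome 7, 19696109 to 19699188) was at 1444, 1209.9 and 1498 CPM in wild-type libraries and at 1313, 1337 and 1294 CPM in knockout libraries. As for Abca1, the knockout values lay inside a wider wild-type range with replicate 2 lowest. The fold was 0.950 (95% interval 0.844 to 1.07, edgeR adjusted p = 0.787). Without wild-type replicate 2 the log2 fold changes were -0.16 for Apoe (edgeR adjusted p = 0.112) and -0.10 for Abca1 (0.3), and without wild-type replicate 3 they were -0.01 and -0.0025. Over all alternatives the adjusted p ranged from 0.112 to 0.972 for Apoe and from 0.3 to 0.994 for Abca1. Without wild-type replicate 2 the groups did not overlap for 7 of the 10 genes, where this held for 28.4% of all genes, and without wild-type replicate 3 for 4 of the 10 (28.2% of all).

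Mylip, whose product limits lipoprotein uptake by the cell, spanned 83.2 to 89.9 CPM over the 6 libraries. Mylip (ENSMUSG00000038175, chromosome 13, 45389742 to 45412022) was at 85.0, 87.3 and 83.2 CPM in wild-type libraries and at 87.1, 85.8 and 89.9 CPM in knockout libraries. The groups overlapped, with a fold of 1.03 (95% interval 0.956 to 1.11, edgeR adjusted p = 0.818).

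In the lipogenic arm, Srebf1 and Lpcat3 overlapped between genotypes while Scd1 did not. Srebf1 (ENSMUSG00000020538, chromosome 11, 60199089 to 60222581), the transcription factor gene whose internal promoter is printed above, was at 47.2, 54.2 and 45.8 CPM in wild-type libraries and at 51.8, 50.1 and 48.3 CPM in knockout libraries. Its fold was 1.02 (95% interval 0.904 to 1.15, edgeR adjusted p = 0.930), and its log2 fold change of 0.03 turned to -0.0181 without wild-type replicate 3. Gene-level counts cannot separate its start sites. Its exons share 175 bases with Rai1 and the miRNA gene Mir6922.

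Lpcat3 (ENSMUSG00000004270, chromosome 6, 124663027 to 124704418), which puts polyunsaturated fatty acids into membrane phospholipids, was at 55.8, 51.2 and 46.3 CPM in wild-type libraries and at 50.9, 47.5 and 47.1 CPM in knockout libraries. The knockout values lay within the wild-type range, at a fold of 0.949 (95% interval 0.836 to 1.08, edgeR adjusted p = 0.801). Of its 50-base sequences 8.39% also occur in the antisense gene Emg1, so its counts are uncertain. That is a share of sequence, and the share of counts affected was not measured. Emg1 itself ranged from 32.1 to 37.9 CPM in wild-type libraries and from 33.8 to 35.9 CPM in knockout ones.

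Scd1, the stearoyl-CoA desaturase that makes monounsaturated fatty acids, stood farthest from its wild-type level among the 9 genes with more than a trace of expression. Scd1 (ENSMUSG00000037071, chromosome 19, 44394455 to 44407709) was at 4.78, 5.23 and 4.21 CPM in wild-type libraries and at 3.07, 2.64 and 2.41 CPM in knockout libraries. The raw counts were 325, 389 and 331 against 230, 193 and 176. Every knockout library was below every wild-type library. The fold was 0.571 (log2 fold change -0.81, SE 0.166, 95% interval of the fold 0.436 to 0.748), and it ranked 191 of 16239 genes by unadjusted p (0.00158).

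The call for Scd1 depended on the tool. EdgeR gave an adjusted p = 0.135 and DESeq2 an adjusted p = 0.00626, and the range over the alternatives was 0.00626 to 0.381. Leaving out any 1 library kept the log2 fold change between -0.91 and -0.73 without passing in edgeR. On log2(FPKM + 1) with no filter, a scale that understates changes of low genes, the difference was -0.32. Of its 50-base sequences 4.56% also occur in Scd2, Scd3, Scd4 or a further annotated transcript, so its counts are uncertain. Scd2 was well above Scd1 in level, at 25.1, 64.7 and 68.6 CPM in wild-type libraries and at 57.0, 17.0 and 62.4 CPM in knockout libraries. Its groups overlapped (edgeR adjusted p = 0.926), and its order of libraries was different from that of Scd1. Whether Scd2 reads entered the Scd1 counts was not tested.

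Markers of other cell types were low and in part lower in knockout libraries, in the same direction as Scd1. The 5 fibroblast and mesothelial markers (4 fitted below 0) summed to 65.8 to 70.4 CPM in wild-type libraries and 52.0 to 60.8 CPM in knockout ones. The 3 T cell markers (3 below 0) summed to 5.30 to 6.60 and 3.40 to 3.71 CPM, and the 3 mast cell markers (3 below 0) to 4.21 to 4.61 and 2.23 to 3.48 CPM. The 3 dendritic cell markers (2 below 0) summed to 13.5 to 15.4 and 10.7 to 12.9 CPM. Neutrophil markers, with Ly6g at 0 in all 6 libraries, summed to 23.5 to 26.3 and 20.5 to 22.8 CPM, nearly all from S100a8. S100a9, at means of 0.0196 and 0.172 CPM, was higher in each knockout library and too low to be tested. B cell markers summed to 0.521 to 0.753 and 0.369 to 1.75 CPM, and 2 eosinophil markers to 0.5001 to 1.09 and 0.479 to 0.970 CPM. None of these markers was called by edgeR. DESeq2, the tool that called Scd1, also called the fibroblast marker Dcn (edgeR fold 0.720, DESeq2 adjusted p = 0.00099, range over the alternatives 0.00099 to 0.323) and the T cell markers Cd3g (0.528, DESeq2 0.0309, range 0.0309 to 0.380) and Trbc2 (0.515, DESeq2 0.0328, range 0.0328 to 0.477). All 3 were lower in knockout without overlap of the groups. Of all genes, 8.89% were lower without overlap and DESeq2 called 3.77%. The other fibroblast, mesothelial and T cell markers overlapped between genotypes. The part of other cell types in the Scd1 values was not tested. Adipocyte markers were not analysed here. In bulk RNA fewer cells of a type and less RNA per cell cannot be told apart.

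**Figure D3:**
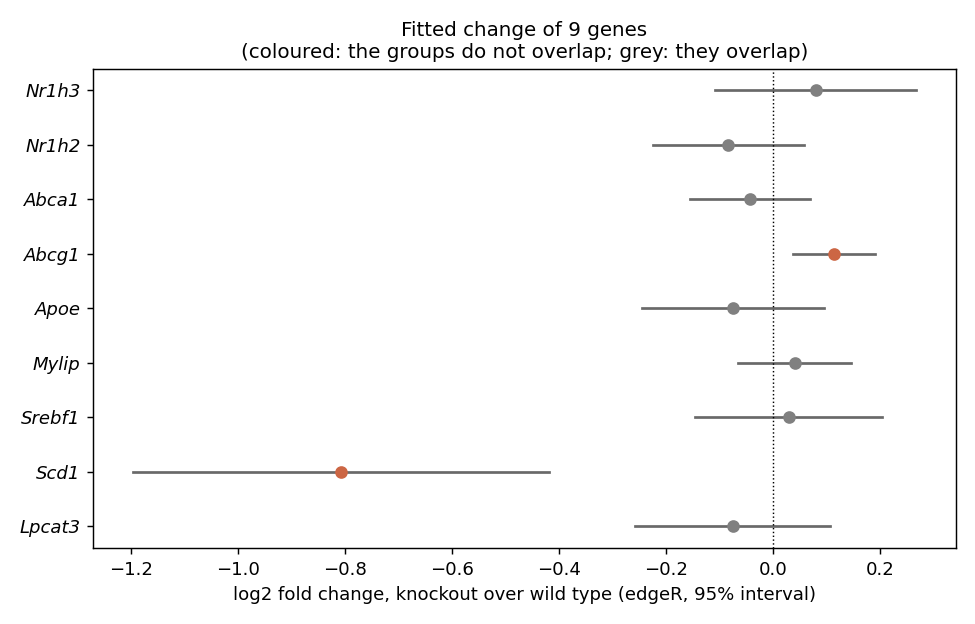
Fitted log2 fold change of knockout over wild type (x axis) with its 95% interval for 9 of the 10 genes; Ch25h, with 0 to 16 counts, is left out. The interval of Scd1 runs from -1.20 to -0.42 and that of Abcg1 from 0.04 to 0.19, and the other 7 intervals include 0.

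A wider list of 48 genes of the same pathway, by role, had 45 genes that could be tested. By edgeR 0 were called. DESeq2 called 4 of 40 with an adjusted p (10%, against 3.77% of all genes), Pltp, Cd5l and Nceh1 higher and Insig1 lower in knockout. At an unadjusted edgeR p under 0.05 were 9 higher (20%, against 4.73% of all genes) and 2 lower (4.44%, against 5.71%). The groups did not overlap for 12 of 45, or 26.7% against 17.6%, of which 9 were higher in knockout (20%, against 8.68%). The median log2 fold change of the list was 0.03. The list was chosen with earlier results of these data known. These shares, and those of its role groups below, are therefore not a test of the pathway.

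Of 9 genes that move or store cholesterol inside the cell, 6 were fitted above 0 and 3 below. At an unadjusted p under 0.05, 4 were higher in knockout (44.4%, against 4.73% of all genes) and 0 were lower (5.71% of all). The groups of these 4 did not overlap (44.4%, against 8.68% of all genes), and 0 were called after adjustment. Nceh1, a hydrolase of stored cholesterol ester, was at 403 ± 2.36 CPM in wild-type libraries and 465 ± 4.54 CPM in knockout ones (fold 1.15, edgeR adjusted p = 0.0756, DESeq2 4.1e-05, range over the alternatives 4.1e-05 to 0.262). Lipa, the lysosomal acid lipase, was at 2393 ± 51.2 and 2572 ± 29.7 CPM (fold 1.07, edgeR adjusted p = 0.144). Npc1, the lysosomal cholesterol exporter, was at 927 and 985 CPM (edgeR adjusted p = 0.297), and Soat1, which esterifies cholesterol for storage, at 819.9 and 871 CPM (edgeR adjusted p = 0.410). The other 5 (Npc2, Stard3, Gramd1a, Gramd1b and Gramd1c) overlapped between genotypes.

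Other macrophage targets of LXR showed 2 of 6 higher at an unadjusted p under 0.05 (33.3%, against 4.73% of all genes) and 0 lower. Cd5l, a secreted protein of tissue macrophages, was at 43.3, 51.4 and 47.0 CPM in wild-type libraries and at 65.8, 67.5 and 67.3 CPM in knockout libraries. It had the largest difference without overlap among the higher genes of the list (fold 1.42, 95% interval 1.26 to 1.58, edgeR adjusted p = 0.0756, DESeq2 1.7e-07). Its adjusted p ranged from 1.7e-07 to 0.262 over the alternatives, and it was the 1 gene of the list that edgeR called without wild-type replicate 2. Smpdl3a, a phosphodiesterase gene, was at 547 ± 4.15 and 595 ± 16.4 CPM (edgeR adjusted p = 0.214).

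Among efflux and lipid acceptor genes, 1 of 6 was higher at an unadjusted p under 0.05 (16.7%, against 4.73% of all genes). Pltp, the phospholipid transfer protein, was at 219, 225 and 215 CPM in wild-type libraries and at 248, 266 and 265 CPM in knockout libraries (fold 1.18, edgeR adjusted p = 0.105, DESeq2 0.00042, range over the alternatives 0.00042 to 0.338). Apoc2 was at 5.62 ± 0.774 and 6.51 ± 1.22 CPM (edgeR adjusted p = 0.746). Of the sterol uptake genes, Lrp1 was at 2132 ± 90.6 and 2309.9 ± 82.0 CPM (edgeR adjusted p = 0.346).

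The fatty acid genes did not share a direction. At an unadjusted p under 0.05, 1 of 8 was higher and 1 of 8 lower (12.5% each, against 4.73% and 5.71% of all genes). Fasn, the fatty acid synthase gene whose promoter holds the same letters as that of Abca1, was at 14.4, 13.2 and 15.2 CPM in wild-type libraries and at 11.4, 11.3 and 11.1 CPM in knockout libraries (fold 0.791, edgeR adjusted p = 0.221, DESeq2 0.0699, range over the alternatives 0.0699 to 0.505). Elovl5, an elongase gene, was at 54.5 ± 1.81 and 61.5 ± 2.14 CPM (edgeR adjusted p = 0.304), and Acly at 163 ± 8.17 and 168 ± 3.66 CPM (0.795). The 3 genes that hold the printed element thus had folds of 0.971 for Abca1, 1.02 for Srebf1 and 0.791 for Fasn.

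In the control of SREBP, Insig1, which retains the SREBP complex in the endoplasmic reticulum, was at 35.9, 36.5 and 37.3 CPM in wild-type libraries and at 28.2, 30.1 and 29.4 CPM in knockout libraries. The fold was 0.800 (edgeR adjusted p = 0.102, DESeq2 0.0012, range over the alternatives 0.0012 to 0.321). Srebf2 was at 78.9 ± 1.79 and 69.8 ± 13.1 CPM (edgeR adjusted p = 0.692), with knockout replicate 3 lowest at 55.6 CPM. Receptor partners and corepressors had 0 of 5 at an unadjusted p under 0.05 (10.4% of all genes). Rxra was at 191 ± 1.13 and 189 ± 4.33 CPM (edgeR adjusted p = 0.901), Rxrb at 36.2 and 31.9 CPM (0.638) and Pparg at 36.1 and 40.8 CPM (0.480). The sterol enzymes also had 0 of 4 at that level, with Cyp27a1, which makes an oxysterol, at 3.89 and 4.67 CPM (0.735).

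**Figure D4:**
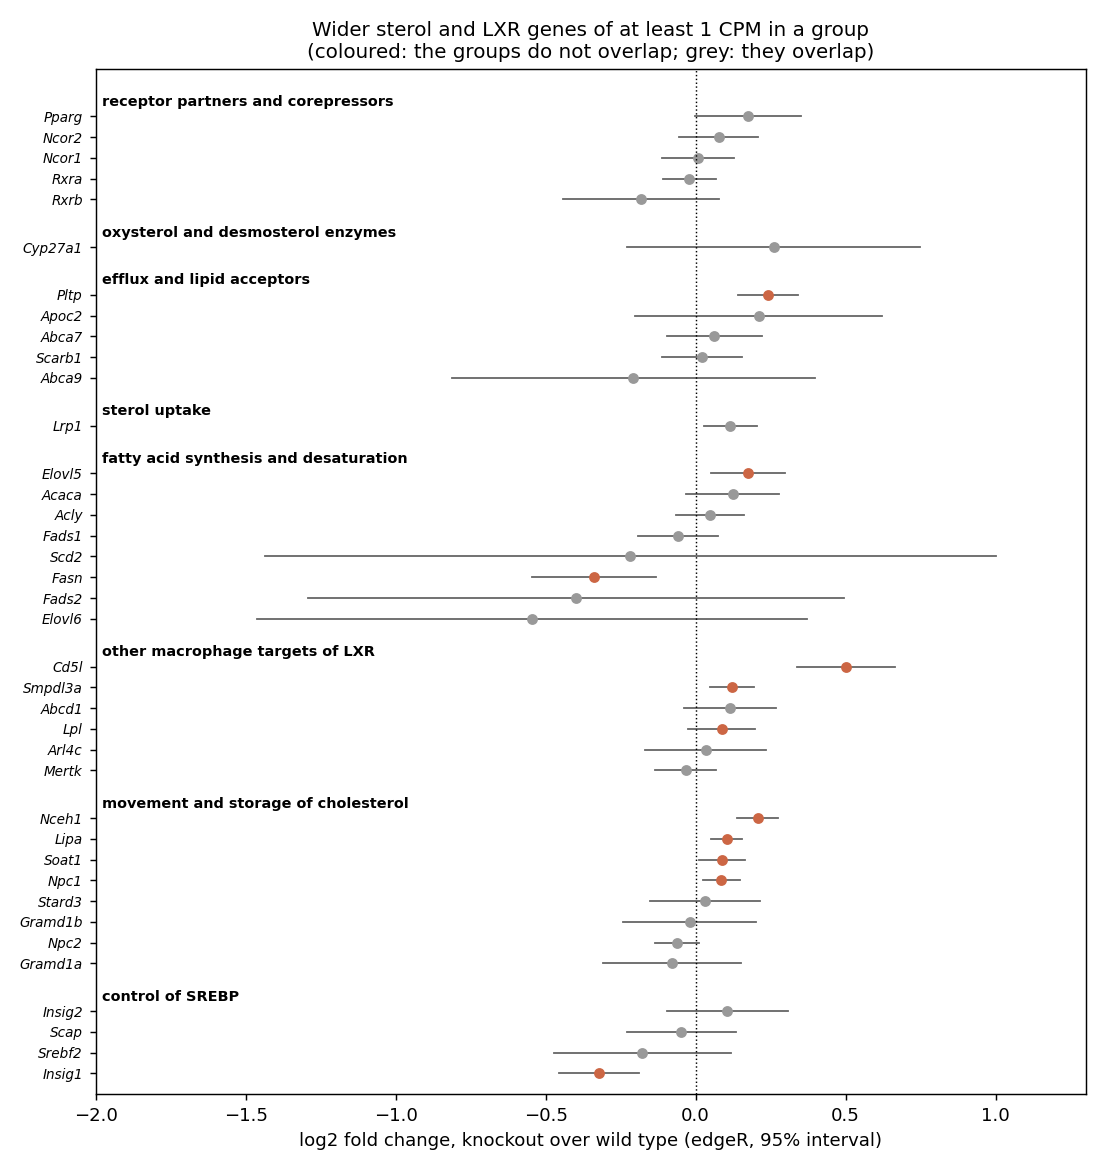
Fitted log2 fold change of knockout over wild type (x axis) with its 95% interval for 38 genes of the wider list at 1 CPM or more in a group, by role. The genes of cholesterol movement with coloured points, Nceh1, Lipa, Soat1 and Npc1, all lie above 0, whereas Fasn and Insig1 are the coloured points below 0.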

How the data were processed

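Per the labels' protocols, poly(A) RNA was sequenced as paired ends. The submitters' processing notes list HISAT2 2.0, while the counting tool, its strand setting and the build are not named. The deposited table holds whole-number counts and the authors' FPKM for each library, per the file headers. Another 12 columns match no sample and were not used. Coordinates are as deposited and taken as GRCm38, since 23625 of 27240 genes have the same position and strand in GENCODE M21.

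The members and lists were chosen with earlier results of these data known. Counts were filtered by filterByExpr (16239 genes), TMM-scaled and tested two-sided with edgeR 4.0.16 quasi-likelihood fits (R 4.3.3), genotype as the only term, Benjamini-Hochberg adjusted over all genes and called at 0.05. Intervals are at 95%. The fit was tested on simulated data. The text names all 10 members and, per role group of the wider list, the 2 genes of smallest p and the 1 of highest FPKM, with Dclk1 and Lyz2 as label checks. Of the genes so chosen, 2 are not reported here. Npc1, Npc2, Soat1, Stard3, the 3 Gramd1 genes, Scd2 and Emg1 were added after values or sequences were seen. The same holds for the markers Dcn, Cd3g, Trbc2, Itgam, Csf1r, S100a8 and S100a9 and for the element shared by 3 promoters. Sequence shared between genes was counted as 50-base words that occur in transcripts of other GENCODE M21 genes. Alternatives were no filter, RLE and upper-quartile scaling, DESeq2 1.42.0, limma 3.58.1 on log2(FPKM + 1), with and without a filter at an FPKM of 1, or on log2(FPKM + 0.1), the replicate number as a block, and leaving out each library. No replicates were duplicates: within groups, chi-square divided by its degrees of freedom was 39.7 to 46.5.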

Additional observations from a re-analysis of the deposited data

How the results depend on the processing

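Of 135 values of single genes under the 14 alternatives, 133 kept their direction and side of the threshold. The exceptions were Scd1, called by DESeq2 (log2 fold change -0.81), and Srebf1, at -0.0181 without wild-type replicate 3 (-0.0181 to 0.106 with 1 library left out). The cause was not tested. FPKM filters left Scd1 and Ch25h untested. Calls over all genes numbered 11, with 7 without a filter, 457 by DESeq2, 7 by limma on log2(FPKM + 0.1), 4 by limma without a filter, 3 with the replicate number as a block and 7 to 35 with 1 library left out. Members called numbered 0, against 1 by DESeq2, and wider genes 0, against 4 by DESeq2 and 0 to 1 with 1 library left out. Members whose groups did not overlap numbered 2, and 2 to 7 with 1 library left out. The replicate block changed no call of a member. Same-numbered libraries had correlations of deviations of 0.0488, 0.0265 and 0.0173, each the highest of that library, a hint from the data that the labels do not back, so the numbers were not taken to pair the libraries. Depth limits Ch25h most among the members.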

Other observations

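Low values of the count table were unevenly spaced. Over the 6 libraries the value 4 occurred 6550 times, against 1648 times for 3 and 1112 for 5. The value 8 occurred 3616 times, against 938 for 7 and 748 for 9, and 12 occurred 2238 times, against 751 for 11 and 568 for 13. One recorded count therefore need not stand for 1 sequenced fragment, and how many counts a fragment gave was not tested. This bears most directly on Ch25h, with 0 to 16 counts, and on the limit of 3 counts given for a count of 0. What it does to the count-based fits of the other genes, Scd1 among them, was not tested.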
